A study of Mus musculus with 21 samples.

Results

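The 10 genes described here encode replacement histone variants, the histones that can be supplied outside DNA replication. They are H2afy, H2afy2, H2afz, H2afv, H2afx, H2afj, H3f3a, H3f3b, H1f0 and H1fx, and all 10 were found by symbol among the 30733 genes of the count table. The set was selected on these data, because H2afy2 was higher in Stag2 knockout (KO) than in wild-type (WT) granulocyte-monocyte progenitors. Values of that contrast are therefore given as a description, with no test for any of the 10 genes.

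A nucleosome wraps DNA around an octamer of core histones, and linker histone H1 sits where the DNA enters and leaves. Most histone mRNA is made in S phase from the clustered replication-coupled genes. The replacement variants are, for the most part, transcribed through the cell cycle from single genes and placed in chromatin by dedicated chaperones and remodellers. MacroH2A, from H2afy (macroH2A1) and H2afy2 (macroH2A2), carries a large non-histone macro domain and is known from repressed chromatin, including the inactive X chromosome. H2A.Z (H2afz and H2afv) flanks active promoters, H2A.X (H2afx) is phosphorylated around DNA breaks, and H3.3 (H3f3a and H3f3b) marks active genes and some heterochromatin.

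RNA was sequenced from mouse bone marrow cells in 21 libraries. Per the labels, marrow was first depleted of lineage-positive cells, and 3 populations were then sorted: LSK cells (stem and multipotent progenitors), granulocyte-monocyte progenitors (GMP) and the erythroid progenitors CFU-E. The groups were 3 LSK KO and 4 LSK WT libraries, 4 GMP KO and 3 GMP WT libraries, and 4 CFU-E KO and 3 CFU-E WT libraries. Stag2 encodes a subunit of cohesin, the ring complex that holds sister chromatids and shapes chromatin loops, and its knockout is the only allele the labels name. In the sources used here nothing is stated on the driver of the deletion, the strain, the age or on whether replicate libraries came from separate animals. Each p-value here thus weighs a difference against the spread of the libraries, part of which may be technical.

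LSK libraries were amplified over full transcripts and held 22813333 to 32196233 counts each. Libraries of the other populations read only the 3′ end of transcripts; GMP and CFU-E libraries held 1250683 to 4401993 and 3654667 to 5550165 counts. LSK levels are therefore not compared with the others. Levels are counts scaled to a fixed library total, in the usual unit CPM, with TMM factors (trimmed mean of M values) estimated within each comparison, and are given as mean ± SD. Levels of cell type markers, and sums of marker or S-phase genes, are in CPM without TMM factors. Stag2 itself was 72.2 ± 6.6 CPM in LSK KO and 165.9 ± 16.9 CPM in LSK WT (adjusted p = 0.0270), and 64.0 ± 15.7 CPM in CFU-E KO and 140.3 ± 17.6 CPM in CFU-E WT (adjusted p = 0.0144). In GMP it was 105.6 ± 30.3 CPM in KO and 146.6 ± 50.9 CPM in WT, the groups overlapped and the difference did not pass (adjusted p = 0.360). Each population held its own markers, but not these alone. The sum of 8 LSK markers was 1069 to 1673 CPM in LSK, and 67.5 to 96.5 CPM in GMP and 215.6 to 313.3 CPM in CFU-E. That of 8 GMP markers was 18460 to 48000 CPM in GMP, and 5960 to 17370 CPM in LSK and 32.0 to 144.5 CPM in CFU-E. That of 8 CFU-E markers was 6974 to 9065 CPM in CFU-E, and 646.4 to 1460 CPM in LSK and 164.7 to 262.7 CPM in GMP. LSK libraries thus held more of the GMP markers than of their own. The sum of 8 late neutrophil markers in GMP libraries was 76290 to 192900 CPM. Across kits, Csf3r of the GMP list was higher in LSK than in GMP, and Mllt3 of the LSK list higher in CFU-E than in LSK. GMP KO 4 had the lowest GMP marker sum of its group, 18460 CPM, where the other KO libraries began at 32660 CPM.

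The 2 macroH2A genes are the pair that the results turn on, and their promoters are shown because one gene was read in all 3 populations and the other was at 0 in one of them. Both sequences are RefSeq's, on build GRCm38.p6, and run from 250 bases before to 50 bases after the annotated start. The files' counts were made on mm9, and no coordinate of that build is used. H2afy2 lies on chromosome 10, with its promoter at chr10:61783815-61784114 on the minus strand, and H2afy on chromosome 13, at chr13:56135501-56135800 on the minus strand. Capitals mark any of 3 promoter motifs on either strand: TATAAA of the TATA box, CCAAT of the box of that name, and the GC box GGGCGG. No motif overlaps another in these windows.
H2afy2: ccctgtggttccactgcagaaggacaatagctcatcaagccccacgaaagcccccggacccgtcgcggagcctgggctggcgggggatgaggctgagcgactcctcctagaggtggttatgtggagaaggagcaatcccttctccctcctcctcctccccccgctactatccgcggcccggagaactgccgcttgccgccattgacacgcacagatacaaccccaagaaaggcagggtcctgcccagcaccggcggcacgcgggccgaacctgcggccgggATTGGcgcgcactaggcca
H2afy: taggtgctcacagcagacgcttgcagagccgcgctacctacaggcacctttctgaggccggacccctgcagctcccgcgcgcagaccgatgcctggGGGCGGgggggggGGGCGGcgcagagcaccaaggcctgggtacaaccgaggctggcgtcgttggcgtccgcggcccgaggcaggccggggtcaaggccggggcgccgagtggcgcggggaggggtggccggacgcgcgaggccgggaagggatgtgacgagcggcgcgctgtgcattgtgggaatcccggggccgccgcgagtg

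The H2afy2 promoter held 1 CCAAT box, read on the opposite strand as ATTGG, and neither of the other motifs. The H2afy promoter held 2 GGGCGG motifs and neither of the others. Among 32851 promoters of the same 300 bases, 37.4% held CCAAT, 35.7% held GGGCGG and 13.6% held TATAAA, so each of these matches is common. H2afy2 had 23 CpG dinucleotides and 65.7% G and C, and H2afy had 37 CpG dinucleotides and 74.3% G and C. The median promoter had 7 CpG dinucleotides and 52.7% G and C, and 78.5% of promoters had fewer CpG dinucleotides than H2afy2. A promoter entry was matched for 9 of the 10 genes, and H2afx was not matched.

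Several of the 10 genes encode near-identical proteins, which bears on what a count can separate. In the GENCODE annotation of GRCm38, H3f3b and H3f3a both encode the same protein of 136 residues, while their coding sequences agree at 76.7% of bases. H2afv and H2afz encode proteins of 128 residues that differ at 3, with 79.2% of coding bases alike. H2afy2 and H2afy both encode 372 residues and are identical at 71.4% of 360 aligned residues. Counts of H3f3a, H3f3b and H2afz are uncertain where processed copies elsewhere in the genome share their reads. No strand setting is stated for the counting, so reads of overlapping genes cannot be told apart.

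H2afy2 had the lowest level per kilobase of annotated exons of the 10 genes in LSK cells. It was detected at 5 to 39 counts per library in GMP KO and 3 to 13 in GMP WT, and was not detected in CFU-E. In LSK it had 33.1, 18.6 and 32.4 CPM in KO libraries, against 19.6, 16.4, 15.8 and 12.5 CPM in WT libraries. KO 1 and KO 3 lay above every WT library, while KO 2 lay below WT 1, so the groups overlapped. The means were 28.03 ± 8.19 CPM in KO and 16.1 ± 2.93 CPM in WT, so that the log2 fold change was 0.80 ± 0.24 (SE). edgeR's quasi-likelihood test gave an unadjusted p of 0.00839 and, adjusted over 17664 genes, 0.382, and DESeq2 gave an adjusted p of 0.0631, so the difference did not pass in either.

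In GMP, H2afy2 had 3.70, 10.9, 9.56 and 12.5 CPM in KO libraries, against 0.699, 2.58 and 3.43 CPM in WT libraries. These are 5, 39, 33 and 37 counts in KO and 3, 9 and 13 counts in WT. All KO libraries lay above all WT libraries, KO 1 only just, and KO 1 was also the shallowest library of the series. The means were 9.16 ± 3.83 CPM in KO and 2.24 ± 1.40 CPM in WT, so that the log2 fold change was 2.10 ± 0.50 (SE), for which no p is given because the gene was chosen for it. Leaving out any one library moved the log2 fold change between 1.65 and 2.56, and without KO 1 and KO 4 together, a choice made after seeing the data, it was 2.23. Over the whole table, 1.45% of 9969 genes were called in GMP and 0.451% were called as higher in KO. In bulk RNA, more cells with a transcript and more transcript per cell cannot be told apart.

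In CFU-E, H2afy2 had 0 counts in all 4 KO and all 3 WT libraries. A count of 0 allows up to 3 counts, which is 0.159 CPM over the 18903765 counts of the KO group and 0.227 CPM over the 13190684 counts of the WT group. With counts summed over the group, GMP KO held 114 H2afy2 counts, or 10.5 CPM without scaling, 65.8-fold the limit for CFU-E KO. GMP WT held 25 counts, or 2.03 CPM without scaling, 8.96-fold the limit for CFU-E WT. Both ratios leave out the counting error of the GMP counts, and H2afy2 was chosen on these GMP libraries. The CFU-E limits cover counting error only, since no molecular identifiers are named and reads may not be independent molecules.

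**Figure D1:**
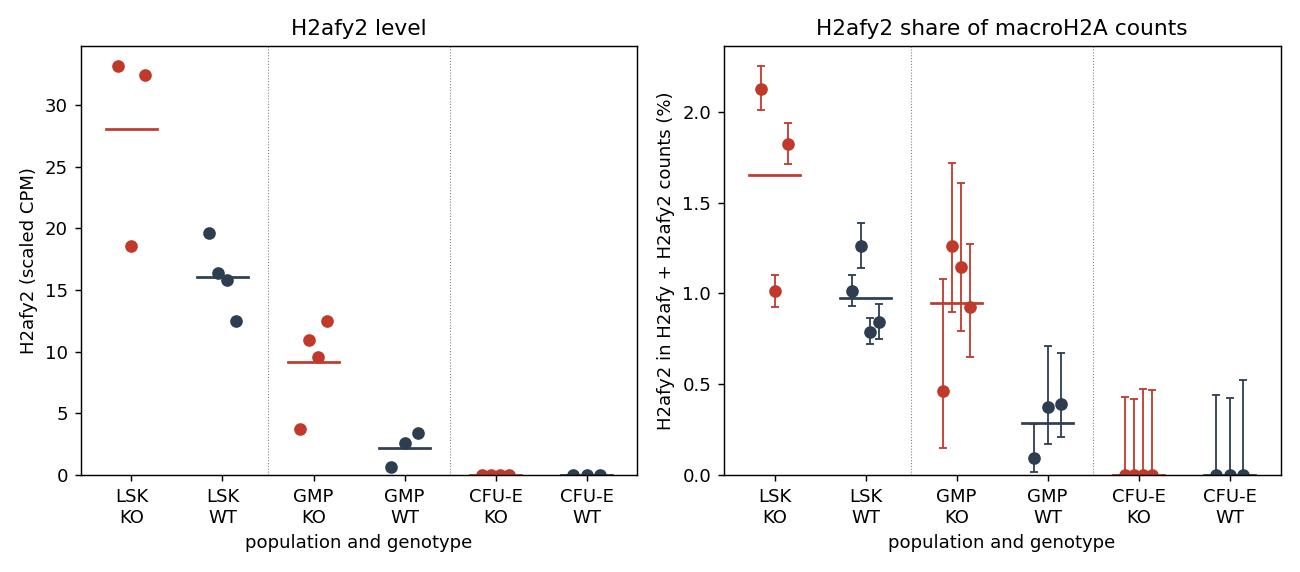
H2afy2 by library (points) and group mean (bars), with KO in red left of WT in dark blue. The left panel gives scaled CPM, which reach 33.1 in LSK KO, 12.5 in GMP KO and 0 in every CFU-E library, and the right panel the percent of macroH2A counts that came from H2afy2, with 95% Clopper-Pearson intervals. LSK values come from full transcripts and the others from 3′ ends, so heights compare within a population.

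The share of H2afy2 among the counts of both macroH2A genes is taken within a library and does not depend on scaling. It is a share of counts that are not corrected for length. In LSK it was 2.13%, 1.01% and 1.82% in KO and 1.01%, 1.26%, 0.789% and 0.841% in WT, with means of 1.65% ± 0.577 in KO and 0.976% ± 0.213 in WT. KO 2 lay among the WT libraries, as it did for the level. In GMP the share was 0.463%, 1.26%, 1.15% and 0.926% in KO and 0.0967%, 0.376% and 0.394% in WT. All GMP KO libraries were above all GMP WT libraries, though the 95% Clopper-Pearson interval of KO 1, 0.15% to 1.08%, spans every WT value but the lowest. In CFU-E the share was 0%, with upper bounds of 0.421% to 0.524%.

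H2afy, the macroH2A gene with more counts in every library, did not pass the test in LSK or in CFU-E. In LSK it was 1523, 1820 and 1745 CPM in KO and 1918, 1285, 1982 and 1470 CPM in WT (log2 0.03 ± 0.19 SE, adjusted p = 0.976). The WT libraries fell on both sides of the KO libraries. In CFU-E it was 176.2 ± 21.9 CPM in KO and 184.1 ± 13.9 CPM in WT (adjusted p = 0.920). In GMP it was 796, 853, 823 and 1334 CPM in KO and 722, 682 and 867 CPM in WT, and the high value belonged to KO 4.

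The H2A.Z genes did not pass the test in LSK or CFU-E. H2afz was 656.4 ± 120 CPM in LSK KO and 639.9 ± 105 CPM in LSK WT, and H2afv was 198.0 ± 10.1 CPM in LSK KO and 201.3 ± 19.8 CPM in LSK WT. In CFU-E, H2afz was 87.4, 115, 87.4 and 91.0 CPM in KO and 81.2, 67.3 and 83.1 CPM in WT. Every CFU-E KO library lay above every CFU-E WT library, and the log2 fold change of 0.24 ± 0.16 (SE) did not pass (adjusted p = 0.703). H2afv in CFU-E was 494.0 ± 49.5 CPM in KO and 435.9 ± 63.2 CPM in WT (adjusted p = 0.677). In GMP, H2afz was 65.6 ± 7.3 CPM in KO and 64.9 ± 0.742 CPM in WT, and H2afv was 531, 620, 554 and 232 CPM in KO and 502, 704 and 745 CPM in WT. The lowest H2afv value was that of KO 4, the library that had the highest H2afy and H2afx values.

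H2afv supplied most of the H2A.Z counts at 3′ ends and a minority over full transcripts. Its share of H2afz and H2afv counts was 87.0% ± 4.49 in GMP KO and 90.7% ± 1.77 in GMP WT, and 83.8% ± 2.15 in CFU-E KO and 84.7% ± 3.16 in CFU-E WT. In LSK the share was 23.5% ± 2.93 in KO and 24.1% ± 1.57 in WT. The library kit and the population change together here, so their parts cannot be told apart.

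H2afx, the break-associated variant, was 373, 544 and 613 CPM in LSK KO and 628, 264, 486 and 320 CPM in LSK WT (log2 0.27 ± 0.30 SE, adjusted p = 0.893). The lowest values of both H2afx and H2afy in LSK were in WT 2 and WT 4. The summed level of 8 late neutrophil markers was 748.8 to 1726 CPM in the KO libraries, 9049 CPM in WT 2, 4763 CPM in WT 4, and 366.9 and 1397 CPM in WT 1 and WT 3. Without WT 2 and WT 4, a choice made after seeing the data, the log2 fold change was −0.11 for H2afx and −0.19 for H2afy. The part of the neutrophil transcripts in these values was not tested. In CFU-E, H2afx was 480.9 ± 56.5 CPM in KO and 435.2 ± 71.2 CPM in WT (adjusted p = 0.906). In GMP it was 782, 907, 912 and 1443 CPM in KO and 643, 675 and 835 CPM in WT, with KO 1 inside the WT range and KO 4 the highest.

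H2afj, an H2A variant of mammals known to accumulate in senescent human fibroblasts, was not called in LSK or CFU-E. It was 130.3 ± 2.1 CPM in KO and 132.1 ± 14.1 CPM in WT in LSK (adjusted p = 0.973), 114.4 ± 13 CPM in KO and 118.2 ± 3.82 CPM in WT in CFU-E (adjusted p = 0.917), and 123.0 ± 23.3 CPM in KO and 133.7 ± 29.6 CPM in WT in GMP.

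Of the H3.3 genes, H3f3b had the highest level per kilobase of annotated exons of the 10 genes in LSK. It was 2724, 2720 and 2386 CPM in LSK KO and 2194, 2367, 1902 and 1999 CPM in LSK WT. The KO libraries all lay above the WT libraries, KO 3 by a small margin over WT 2, but the log2 fold change of 0.30 ± 0.14 (SE) did not pass (adjusted p = 0.686). H3f3a was 232.6 ± 20.3 CPM in LSK KO and 253.8 ± 44.2 CPM in LSK WT (adjusted p = 0.899). H3f3b therefore made 91.8% ± 0.729 of H3.3 counts in LSK KO and 89.3% ± 1.77 in LSK WT.

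At 3′ ends H3f3a was close to absent from the counts, with means of 1.53 ± 0.553 CPM in GMP KO and 3.22 ± 1.78 CPM in GMP WT, and 2.92 ± 1.43 CPM in CFU-E KO and 4.28 ± 1.68 CPM in CFU-E WT. H3f3b in the same libraries was 459.8 ± 102 CPM in GMP KO and 504.9 ± 85.8 CPM in GMP WT, and 605.5 ± 45.7 CPM in CFU-E KO and 525.3 ± 62.1 CPM in CFU-E WT (adjusted p = 0.685). H3f3b then made 99.2% to 99.7% of H3.3 counts in each group on average.

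The linker variants were H1f0, known to accumulate in differentiated and non-dividing cells, and H1fx. In LSK, H1f0 was 121, 89.8 and 113 CPM in KO and 109, 97.8, 60.3 and 67.8 CPM in WT (log2 0.37 ± 0.22 SE, adjusted p = 0.801), with overlapping groups. H1fx was 33.3 ± 7.28 CPM in LSK KO and 30.3 ± 7.44 CPM in LSK WT (adjusted p = 0.915). In CFU-E, H1fx was 15.04, 54.8, 43.0 and 22.8 CPM in KO and 13.4, 24.3 and 20.5 CPM in WT. KO 2 and KO 3, both on the second flow cell, were above all others, and with a flow cell term the log2 difference was 0.37 ± 0.39 (SE), which did not pass (adjusted p = 0.831). Within the first flow cell, which held 1 KO and 2 WT libraries, it was −0.36, and the sign thus turned. H1f0 was at 3.11 ± 0.703 CPM in CFU-E KO and 2.11 ± 0.515 CPM in CFU-E WT, a few counts per library (adjusted p = 0.778).

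**Figure D2:**
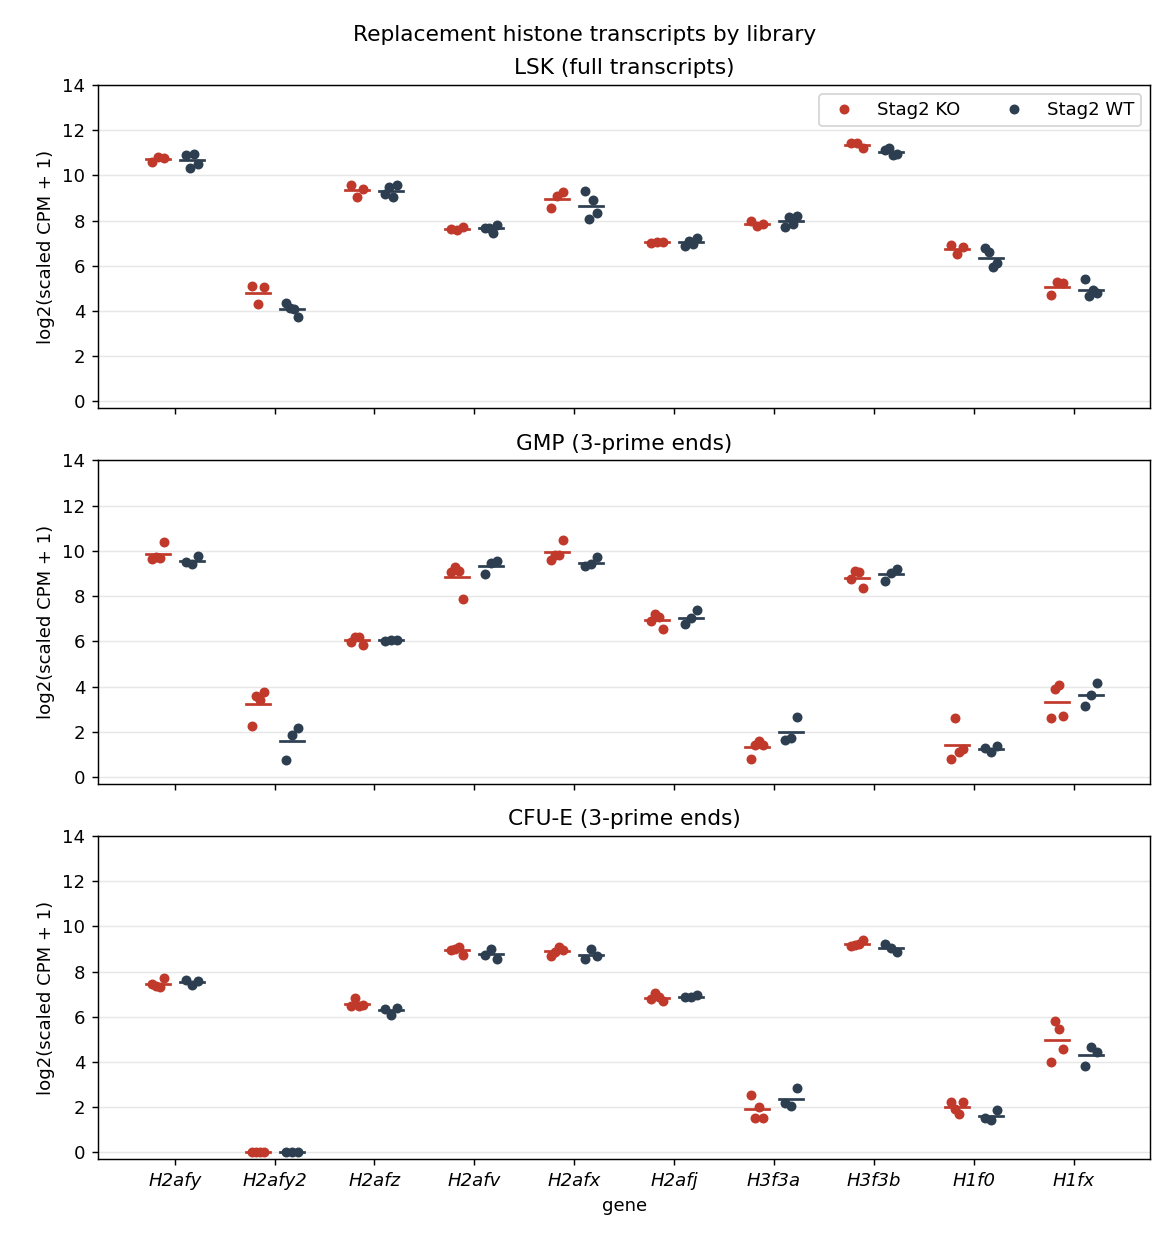
Levels of the 10 genes by library, on the log2(scaled CPM + 1) scale, with KO points in red left of WT points in dark blue and bars at the mean of the log values. H2afy2 sits at 0 in all 7 CFU-E libraries, and H3f3a and H1f0 are at a few CPM in GMP and CFU-E.

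Counted over the set, 0 of 10 genes passed in LSK and 0 of 9 tested genes passed in CFU-E, where H2afy2 had no counts to test. At an unadjusted p under 0.05 these counts were 1 in LSK, which is H2afy2, and 0 in CFU-E, and DESeq2 called 0 in both. Over all genes, edgeR called 0.0793% of 17664 in LSK and 1.06% of 10170 in CFU-E. An unadjusted p under 0.05 was found for 7.88% of all genes in LSK and 9.81% in CFU-E, and DESeq2 called 1.94% in LSK and 1.79% in CFU-E. The KO and WT libraries did not overlap for 1 of the 10 genes in LSK (H3f3b), against 7.89% of all genes tested. They did not overlap for 1 of 9 in CFU-E (H2afz), against 11.8% of all genes tested, so both counts are near the background. The median log2 fold change of the set was 0.09 in LSK, with 7 positive and 3 negative, and 0.23 in CFU-E, with 6 positive and 3 negative, while the median over all genes was 0.004 in each. In CFU-E, 3 of 7 megakaryocyte markers rose in KO and none fell, and their sum was 429.2 to 934.0 CPM in KO and 125.2 to 271.7 CPM in WT. The part of these transcripts in the CFU-E values was not tested.

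In GMP, 8 of the 10 genes passed the filter on low counts, and H2afy2 passed it through its KO libraries. H3f3a and H1f0 did not pass. Log2 fold changes in GMP were 2.10 for H2afy2, 0.50 ± 0.25 for H2afx, 0.33 ± 0.24 for H2afy, 0.02 ± 0.21 for H2afz, −0.12 ± 0.23 for H2afj, −0.13 ± 0.23 for H3f3b, −0.17 ± 0.40 for H1fx and −0.43 ± 0.29 for H2afv (± SE). The groups of H2afy2 were the only ones of the 8 that did not overlap, where 15.8% of all genes tested did not. Over the 14 alternatives run, H2afx lay between 0.29 and 0.61, H2afy between 0.14 and 0.43 and H2afv between −0.59 and −0.13, while H2afz, H2afj, H3f3b and H1fx took both signs. Without KO 4 the values were 0.29 for H2afx, 0.14 for H2afy and −0.17 for H2afv. The sum of the 8 late neutrophil markers did not overlap between the groups either: it was 76290 to 124900 CPM in GMP KO and 149100 to 192900 CPM in GMP WT. S100a8 made up much of it, at 31850 to 64520 CPM in KO and 83110 to 103100 CPM in WT. Ngp and Ltf were also apart, while S100a9, Camp, Lcn2, Mmp8 and Retnlg overlapped between the groups without TMM factors. Of the 8 markers tested, 1 was called as lower in KO. The sum of 7 plasmacytoid dendritic cell markers was 190.3 to 355.6 CPM in GMP KO, with 1 marker at 0 in every KO library, and 118.7 to 162.2 CPM in GMP WT. That gap was carried by Tcf4, at 105.5 to 250.1 CPM in KO and 32.7 to 54.5 CPM in WT, the single marker that rose of 3 tested. TMM factors lowered levels in KO 1, whose sum was 190.3 CPM, and raised those in WT 3, whose sum was 161.8 CPM. The gap between the sums thus depends on the scaling. Bst2 was 53.6 to 109.1 CPM in KO and 61.1 to 110.5 CPM in WT, and Siglech, a defining marker, did not exceed 0.864 CPM in KO and 0.268 CPM in WT. The part of the neutrophil transcripts in the 10 genes' values was not tested.

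**Figure D3:**
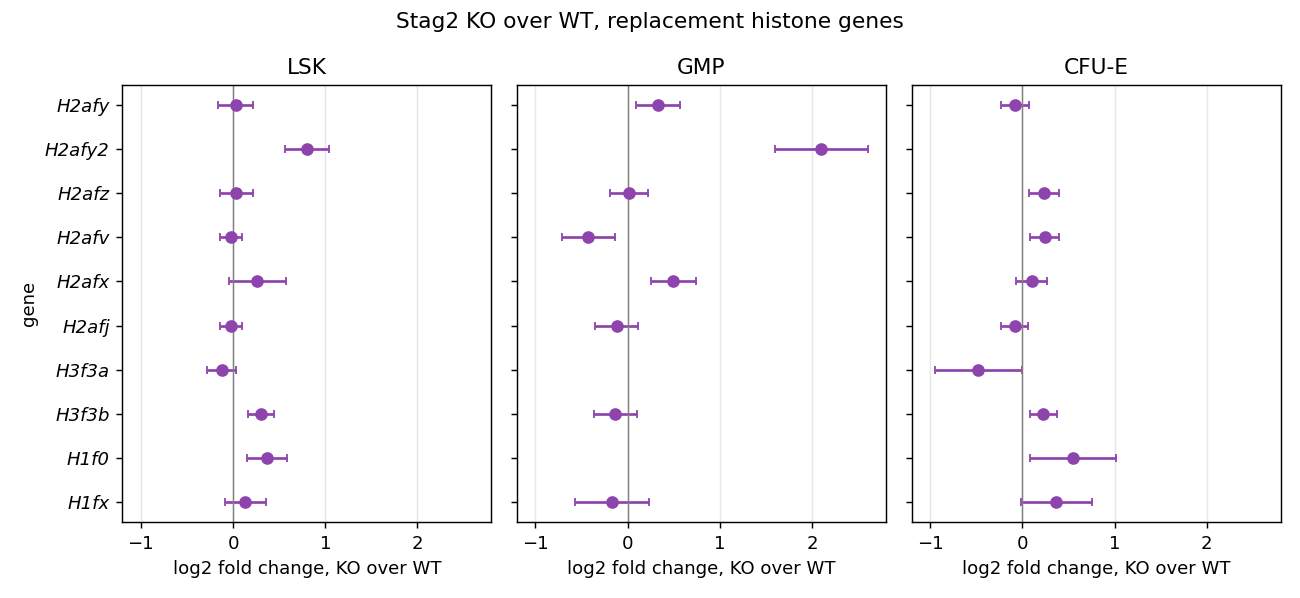
Log2 fold change of KO over WT for each gene in each population (point) with its standard error (bar). H2afy2 stands at 2.10 in GMP and 0.80 in LSK, and the other genes lie between −0.48 and 0.55; genes with no point did not pass the filter on low counts.

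Whether the KO effect differed between LSK and CFU-E was tested as an interaction of genotype and population, for the 9 genes other than H2afy2. None of the 9 passed with edgeR (0 also at an unadjusted p under 0.05 and with DESeq2). The differences, LSK minus CFU-E, ran from −0.32 for H2afv to 0.27 for H3f3a on the log2 scale, with a smallest adjusted p of 0.849. Over all genes edgeR called 0.0425% of 16474, DESeq2 called 0.678%, and 7.4% had an unadjusted p under 0.05.

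In LSK, where reads cover full transcripts, levels were ordered per kilobase of all exons that GENCODE annotates to a gene on GRCm38. This joined length is not that of the transcripts present, and the order depends on it. It was 6809 bases for H2afy, 2976 for H3f3b, 1776 for H2afz and 1384 for H2afx. In CPM without this division, H2afy stood above H2afz and H2afx. H3f3b came first, with 877.0 ± 65.2 CPM per kilobase in KO and 710.9 ± 69.6 in WT. H2afz (369.6 ± 67.3 in KO and 360.3 ± 59.3 in WT), H2afx (368.5 ± 89.1 in KO and 306.7 ± 119 in WT) and H2afy (249.1 ± 22.7 in KO and 244.3 ± 49.9 in WT) followed. H2afz and H2afx did not differ beyond their spread in either genotype. In WT, H2afx (190.8 to 453.6) and H2afy (188.7 to 291.1) overlapped, as did H1f0 (29.4 to 53.1) and H1fx (19.95 to 33.75). H2afv came next, with 121.2 ± 6.22 in KO and 123.3 ± 12.1 in WT, and then H2afj (71.2 ± 1.16 in KO and 72.1 ± 7.69 in WT) and H3f3a (66.4 ± 5.81 in KO and 72.4 ± 12.6 in WT), which did not differ beyond their spread. H1f0 (52.5 ± 7.85 in KO and 40.8 ± 11.4 in WT), H1fx (27.4 ± 5.98 in KO and 24.9 ± 6.12 in WT) and H2afy2 (12.9 ± 3.77 in KO and 7.39 ± 1.35 in WT) were the lowest.

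Wild-type CFU-E and wild-type GMP share a library kit, and 3 of the 10 genes were lower in CFU-E than in GMP. CFU-E WT 3 was the only library of this fit on the second flow cell, so the flow cell term took up its values. Fold changes and p-values of this comparison thus rest on CFU-E WT 1 and WT 2 against the GMP WT libraries, while levels are listed for every library. H2afy was 161, 147 and 160 CPM in CFU-E WT and 808, 756 and 938 CPM in GMP WT, 5.42-fold lower in CFU-E (log2 −2.44 ± 0.26 SE, adjusted p = 3.45e-08). The CFU-E libraries lay close together and far below every GMP library. H2afx was 315, 450 and 346 CPM in CFU-E WT and 720, 749 and 903 CPM in GMP WT (log2 −1.05 ± 0.26 SE, adjusted p = 0.00159). H2afv was 348, 441 and 323 CPM in CFU-E WT and 562, 781 and 806 CPM in GMP WT (log2 −0.86 ± 0.26 SE, adjusted p = 0.00767). Neither pair of groups overlapped. Without CFU-E WT 1, which leaves 1 CFU-E library on the flow cell of the GMP libraries, H2afy alone passed; H2afx had a log2 fold change of −0.80 (adjusted p = 0.0834) and H2afv of −0.69 (adjusted p = 0.146).

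H2afj was 100.3 ± 3.33 CPM in CFU-E WT and 147.1 ± 29.9 CPM in GMP WT and did not pass (log2 −0.58 ± 0.25 SE, adjusted p = 0.0624), though it did with DESeq2 (adjusted p = 0.0384), which called 43.7% of all genes. H2afz was 65.4 ± 5.98 CPM in CFU-E WT and 71.6 ± 1.10 CPM in GMP WT (adjusted p = 0.562), and H3f3b was 445.5 ± 48.0 CPM in CFU-E WT and 556.0 ± 86.3 CPM in GMP WT (adjusted p = 0.444). H1fx was 16.5 ± 5.09 CPM in CFU-E WT and 12.99 ± 4.71 CPM in GMP WT (adjusted p = 0.491). Of the 8 genes tested, 3 were called, all lower in CFU-E, where 46.9% of 10329 genes were called and 25% were called lower in CFU-E. The groups did not overlap for 5 of 8, against 59.8% of all genes tested, so neither count stands above the background. H2afy2, which is given no p here because its GMP WT libraries were part of its choice, was 0 CPM in CFU-E WT and 0.782, 2.86 and 3.71 CPM in GMP WT.

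**Figure D4:**
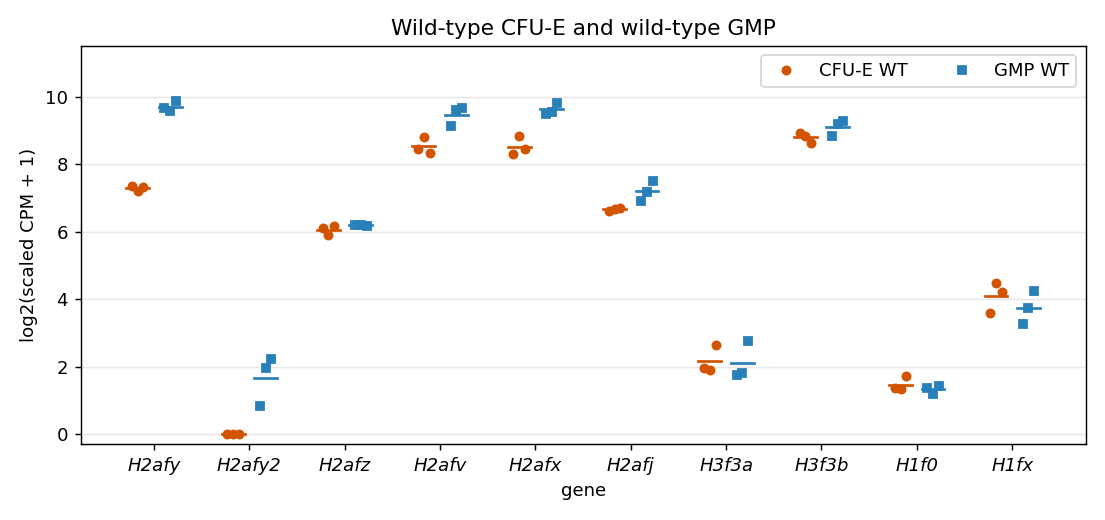
Levels of the 10 genes in the 3 CFU-E WT libraries (circles) and the 3 GMP WT libraries (squares), on the log2(scaled CPM + 1) scale, with bars at the mean of the log values. H2afy shows the widest gap among tested genes, 5.42-fold in the fit, and H2afx and H2afv smaller ones. The flow cell term of the fit took up CFU-E WT 3, so 5.42-fold rests on CFU-E WT 1 and WT 2.

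The genes whose levels ran most like H2afy2 over the 14 GMP and CFU-E libraries were Ubb, a polyubiquitin gene (Pearson r = 0.958), Zfyve19 (0.944), Rplp2, a ribosomal stalk protein (0.941), Smad1, a signal carrier of BMP receptors (0.940), and Echs1, a mitochondrial enzyme of fatty acid oxidation (0.938). They were ranked on log2(CPM + 1) among 8545 genes, of which 77 had an r above 0.9. H2afx stood at rank 8, with 0.935. The points share flow cells and kit, and 7 of the 14 are CFU-E libraries in which H2afy2 is 0. Over the 7 GMP libraries alone r was 0.879 for Ubb, 0.843 for Zfyve19, 0.837 for Rplp2, 0.816 for Smad1, 0.799 for Echs1 and 0.811 for H2afx. H2afy2 was chosen for its KO and WT values in these 7 libraries, and they also entered the ranking. The GMP values of r are thus a description and no independent check.

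The machinery around these variants was read from 8 lists with 134 genes in the table. They hold the replication-coupled core and linker histones, other variants such as Cenpa, and the factors that deposit H3.3, exchange H2A.Z, assemble new nucleosomes, signal from H2A.X or act with macroH2A. In LSK, 126 were tested and edgeR called 0, where it called 0.0793% of all genes. An unadjusted p under 0.05 was reached by 16 of the 126, against 7.88% of all genes, and DESeq2 called 3, all higher in KO, against 1.94% of the genes to which it gave an adjusted p. In CFU-E, 109 were tested and edgeR and DESeq2 called 0, where they called 1.06% and 1.79% of all genes, and 7 had an unadjusted p under 0.05, against 9.81% of all genes. In GMP, 112 were tested, edgeR called 1 as higher and 0 as lower and DESeq2 called the same gene, where they called 1.45% and 3.01% of all genes. At an unadjusted p under 0.05 there were 12 of the 112 in GMP, against 17.9% of all genes.

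The replication-coupled histones had mostly positive log2 fold changes in LSK, and none passed with edgeR. Of 54 tested core histone genes, 53 had a positive log2 fold change, with a median of 0.56, and all 5 linker histone genes did, with a median of 0.65, where 50.6% of all genes were positive. Hist1h2ad, an H2A gene, was 5.54 ± 0.716 CPM in LSK KO and 2.34 ± 0.714 CPM in LSK WT (log2 1.24 ± 0.29 SE, adjusted p = 0.236), and Hist1h1c, the gene of H1.2, was 48.5 ± 7.27 CPM in LSK KO and 29.4 ± 8.0 CPM in LSK WT (log2 0.72 ± 0.21 SE, adjusted p = 0.354). DESeq2 called Hist1h2ad (log2 1.25, adjusted p = 0.00321) and 2 H2B genes named after their values were seen, Hist3h2ba (log2 1.62, adjusted p = 0.0215) and Hist2h2be (log2 0.62, adjusted p = 0.0461). Genes read in the same libraries are not independent replicates. Without KO 1 the core histone median was 0.32 with 46 of 55 positive, and without WT 2 and WT 4 it was 1.06 with 54 of 55 positive. The summed level of 12 S-phase genes was 3700 to 4841 CPM in LSK KO and 3351 to 4593 CPM in LSK WT. The summed level of 7 monocyte and macrophage markers was 102.9 to 201.7 CPM in LSK KO and 211.7 to 422.2 CPM in LSK WT, and that of 6 T and NK cell markers was 308.4 to 380.8 CPM in LSK KO and 384.4 to 663.0 CPM in LSK WT. Without TMM factors neither of these 2 sums overlapped between the groups, and edgeR called none of their markers. KO 2 and WT 1 lay nearest, at 201.7 and 211.7 CPM for the monocyte and macrophage sum. For the T and NK cell sum they were at 380.8 and 384.4 CPM. TMM factors raised levels in KO 2 (H2afy from 1669 to 1820 CPM) and lowered those in WT 1 (from 1931 to 1918 CPM). Both separations thus depend on the scaling. Nearly all of the T and NK cell sum was Nkg7, at 302.1 to 372.7 CPM in LSK KO and 377.8 to 641.5 CPM in LSK WT. No other marker of that list exceeded 6.08 CPM in LSK. Nkg7 was also 271.9 to 602.9 CPM in GMP KO and 455.2 to 620.2 CPM in GMP WT, where Cd3e was at 0. The part of S phase and of these marker transcripts in the histone values was not tested. Most replication-coupled mRNAs end in a stem-loop without a poly(A) tail, and amplification from poly(A) tails reads them in part.

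In CFU-E the same core histones had a median log2 fold change of −0.22, with 11 of 40 positive, and in GMP of 0.29, with 34 of 44 positive, where 50.8% and 51.2% of all genes were positive in CFU-E and in GMP. The CFU-E median was −0.08 with 17 of 39 positive without KO 1, −0.10 without WT 2, −0.37 without KO 2, −0.09 with no flow cell term, and −0.29 within the first flow cell and −0.08 within the second. The GMP median was 0.18 without WT 1, 0.19 with 27 of 43 positive without KO 2, and 0.48 without KO 1 and KO 4. Hist1h3g, an H3 gene, was 2.66 ± 0.564 CPM in CFU-E KO and 4.96 ± 0.228 CPM in CFU-E WT (adjusted p = 0.364). The S-phase sum was 3626 to 3769 CPM in CFU-E KO and 3860 to 4268 CPM in CFU-E WT, and 1932 to 2220 CPM in GMP KO and 2049 to 2281 CPM in GMP WT; its part was not tested. The gene that rose in GMP was Hist1h2bn, an H2B gene, at 5.66 ± 0.969 CPM in KO and 1.16 ± 0.653 CPM in WT (log2 2.24 ± 0.49 SE, adjusted p = 0.0360). Hist1h2bn passed the filter on low counts through its KO libraries, and it did not pass the stricter filter. At this level the call rests on few counts. It was lost with libraries thinned to one depth, and without any one of GMP KO 2, KO 3, WT 2 or WT 3.

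Deposition factors were not called by edgeR or DESeq2 in any of the 3 populations with the count filter used here. With no filter on low counts edgeR called 1 in GMP, Rbbp4, a histone-binding subunit of CAF-1, named after its values were seen. It was 71.4 ± 42.7 CPM in GMP KO and 38.8 ± 12.2 CPM in GMP WT, with overlapping groups, and its log2 fold change was 0.85 with no filter (adjusted p = 0.0399) and 0.88 with it (adjusted p = 0.223). For H3.3, the chaperone gene Asf1a was 124.9 ± 37.4 CPM in GMP KO and 77.7 ± 18.5 CPM in GMP WT (log2 0.69 ± 0.26 SE, adjusted p = 0.196), with list medians of 0.15 for LSK, 0.57 for GMP and −0.23 for CFU-E. The sign in CFU-E turned without 1 library: leaving out WT 3 gave a median of 0.19 with 6 of 8 positive, and the first flow cell alone gave 0.18. In GMP the median was 0.23 without KO 4, 0.27 with the replicate block, and 0.14 without KO 1 and KO 4, and in LSK it was 0.02 without WT 2 and WT 4. For H2A.Z, Trrap, the scaffold of the TIP60 complex, was 73.9 ± 12.5 CPM in GMP KO and 47.5 ± 9.57 CPM in GMP WT (adjusted p = 0.193), with list medians of 0.03 for LSK, 0.06 for GMP and −0.06 for CFU-E, and of −0.01 for GMP without KO 1 and KO 4. For assembly at the replication fork, the CAF-1 genes had the smallest p: Chaf1b was 40.3 ± 14.2 CPM in GMP KO and 64.7 ± 8.87 CPM in GMP WT (adjusted p = 0.217), and Chaf1a was 85.3 ± 14.2 CPM in CFU-E KO and 114.3 ± 23.0 CPM in CFU-E WT (adjusted p = 0.345).

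Among 15 tested genes of H2A.X signalling, 15 were positive in LSK with a median of 0.20, where 50.6% of all genes were positive, and this became 10 of 15 and 0.04 without WT 2 and WT 4. In GMP 9 of 13 were positive with a median of 0.19, which became 0.06 without KO 4 and −0.01 with 6 of 13 without KO 1 and KO 4. In CFU-E 4 of 14 were positive with a median of −0.12, which became 0.02 with 9 of 14 without WT 3. Eya2, of the phosphatase family that acts on H2A.X, was 47.2 ± 4.29 CPM in LSK KO and 33.7 ± 7.08 CPM in LSK WT (adjusted p = 0.521). Trp53bp1, which binds chromatin at breaks, was 12.6 ± 4.17 CPM in GMP KO and 6.33 ± 2.24 CPM in GMP WT (adjusted p = 0.192). Of the macroH2A partners, the corepressor gene Trim28 was 89.5 ± 22.5 CPM in GMP KO and 125.1 ± 38.8 CPM in GMP WT (adjusted p = 0.332), and the Polycomb methyltransferase gene Ezh2 was 439.6 ± 36.5 CPM in CFU-E KO and 546.9 ± 71.2 CPM in CFU-E WT (adjusted p = 0.473). The centromeric variant gene Cenpa was 123.5 ± 15.8 CPM in LSK KO and 137.1 ± 19.6 CPM in LSK WT (adjusted p = 0.886).

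**Figure D5:**
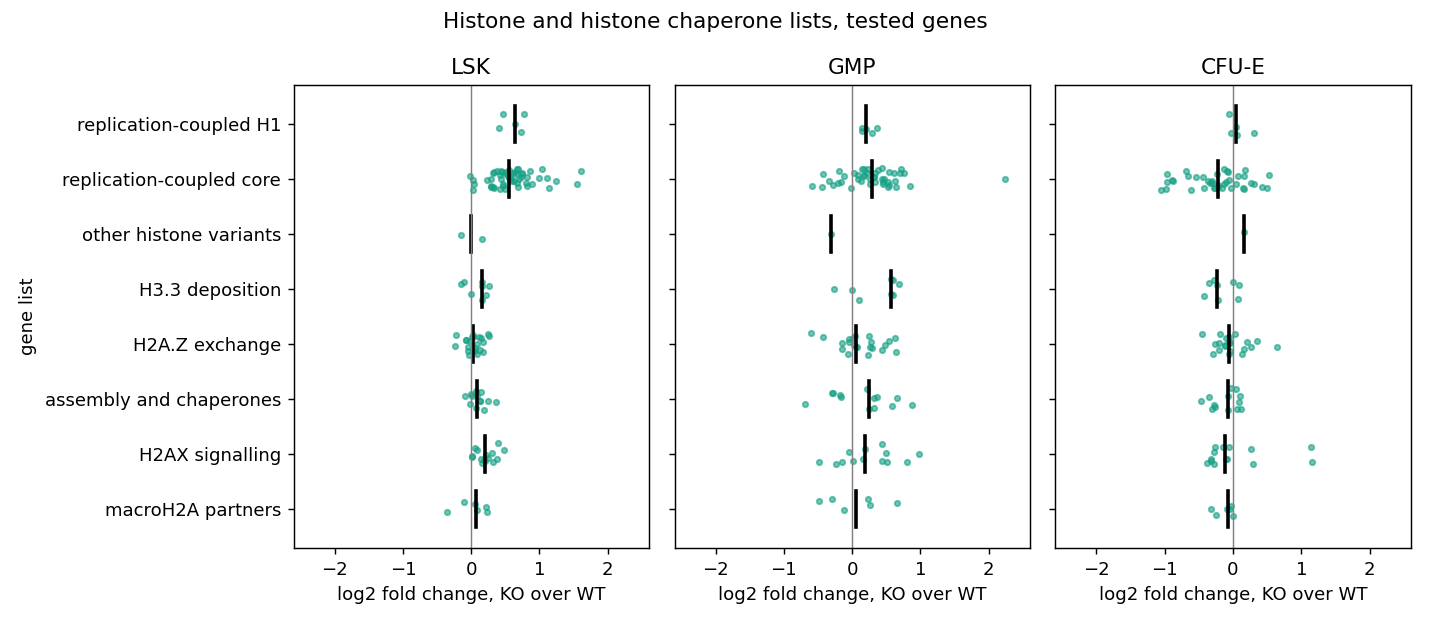
Log2 fold change of KO over WT for the tested genes of 8 histone and histone chaperone lists (points), with the list median as a black line, in each population. Core histones have medians of 0.56 (LSK), 0.29 (GMP) and −0.22 (CFU-E), and a list with 1 tested gene has its line at that gene.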

How the data were processed

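The authors deposited a table of raw counts by gene and library, 21 libraries in all; its values are whole and not normalized. Per the submitters' processing notes the tools named are STAR 2.4, HTSeq 0.6.1 and DESeq2, and the build is mm9; the annotation is not given in the sources used here. The 10 genes, the histone lists and the tests were chosen with earlier results of these data known. Counts were analysed with edgeR 4.0.16 in R 4.3.3: filterByExpr (minimum count 10, minimum total 15), TMM scaling, quasi-likelihood F tests, and Benjamini-Hochberg adjustment over all genes tested, with calls at an adjusted p under 0.05. SE was taken as log2 fold change over √F. A flow cell term, from the labels' descriptions, entered fits with CFU-E: GMP libraries, CFU-E KO 1, WT 1 and WT 2 share one flow cell. Named genes were all 10 members, Stag2, the 5 genes most like H2afy2, and from each histone list the called genes or the gene of smallest p. DESeq2 1.42.0, RLE factors, other count filters, thinning, the replicate block and leaving out libraries were the alternatives. Leaving out LSK WT 2 and WT 4 together, or GMP KO 1 and KO 4 together, was chosen after seeing the data. The code was tested on simulated counts. Library totals were 1250683 to 32196233, and low counts per library, at most 39 for H2afy2, limit H2afy2, H3f3a and H1f0 at 3′ ends.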

Additional observations from a re-analysis of the deposited data

Results flagged for a closer look

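Of 29 groups of 4 libraries examined, 3 had a library whose gap to the nearest other library took up more of the group's range than Dixon's critical value allows; chance gives about 1 in 20. H2afy in GMP KO 4 was 1334 CPM, with the nearest KO library at 853.4 CPM. H1f0 in GMP KO 2 was 5.04 CPM, with the nearest KO library at 1.35 CPM, a difference of a few counts. H2afz in CFU-E KO 2 was 114.7 CPM, with the nearest KO library at 91.0 CPM.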

How the results depend on the processing

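No member was called in LSK, in CFU-E or in the test of the difference between them under any alternative run. In LSK, all genes called numbered 14 in the reported fit, 342 with DESeq2, 38 with no count filter, 0 with the replicate block, 1 without WT 2 and WT 4, and 0 to 123 leaving out each library. Of the histone lists, DESeq2 called 3 in LSK (Hist2h2be, Hist3h2ba and Hist1h2ad, the first 2 named after their values were seen). In GMP, all genes called numbered 145, against 300 with DESeq2, 601 with no filter, 91 with the stricter filter, 331 with the replicate block, 60 thinned and 38 to 211 leaving out each library. List genes called there were 1, against 2 with no filter, 0 with the stricter filter, 2 with the block, 0 thinned and 0 to 2 leaving out each library. In CFU-E, 108 became 182 with DESeq2, 333 with no filter, 32 with the replicate block, 234 with no flow cell term and 22 to 143 leaving out each library. For the difference, 7 became 90 with DESeq2, 32 with no filter and 1 to 24 leaving out each library. Between WT CFU-E and WT GMP, 3 members became 1 to 4 leaving out each library, and H2afj also passed with RLE factors, with DESeq2, without GMP WT 1 and with no flow cell term.

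Uncalled log2 fold changes near 0 turned sign in places. In LSK, H2afv was 0 and H2afj 0.005 with no filter, and with the replicate block H2afy was −0.009, H2afv 0.03 and H2afj 0.044. Without LSK WT 2 and WT 4, H2afy was −0.19, H2afv 0.086, H2afx −0.11, H2afj 0.12, H3f3a 0.12 and H1fx −0.062. Leaving out each LSK library, H2afy ran from −0.086 to 0.12, H2afz from −0.092 to 0.19, H2afv from −0.087 to 0.028 and H2afj from −0.075 to 0.042. In CFU-E within the first flow cell, H2afx was −0.14, H3f3a 0.54 and H1fx −0.36; leaving out each library, H2afx ran from −0.12 to 0.29, H3f3a from −1.44 to 0.56 and H1fx from −0.34 to 0.98. Between WT CFU-E and WT GMP, H3f3a was 0.016 with no flow cell term and −0.62 to 0.19 leaving out each library, and H1fx −0.22 to 0.72. For the difference between LSK and CFU-E, leaving out each library gave H2afy −0.044 to 0.15, H2afx −0.13 to 0.40, H2afj −0.071 to 0.083, H3f3a −0.68 to 1.21, H3f3b −0.21 to 0.29, H1f0 −0.64 to 0.18 and H1fx −0.96 to 0.49. The cause was not tested.

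Same-numbered KO and WT libraries did not deviate together throughout (correlations from −0.194 to 0.271), so the numbers are not taken to pair samples. With the replicate block H2afy2 had a log2 fold change of 1.87 in GMP and 0.66 in LSK.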
